A study of Rattus norvegicus with 12 samples.

Results

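Heat shock chaperones are the 10 genes Hspa1a, Hspa1b, Hspa8, Hsph1, Dnajb1, Dnaja1, Hsp90aa1, Hspb1, Hspd1 and Hspe1, chosen by name among all rows of the array that are not control spots. They were represented by 21 of the 41012 probes on the array, all matched through the accession or the gene name in the array files, where Hsp90aa1 can carry its older name Hspca. All 10 genes were among the 20760 genes and transcripts tested, for which some group had to be well above background in each of its 3 animals. RNA came from homogenised kidney cortex of male Fisher 344 rats aged 8 weeks, taken 24 h after a single intravenous injection of cephaloridine (CER) in saline, a cephalosporin antibiotic that is concentrated in and damages the proximal tubule. There were 4 groups of 3 animals, with 1 single-colour Agilent array per animal. The control group was given saline alone (0 mg/kg), the low group received 150 mg/kg, the middle group 300 mg/kg and the high group 600 mg/kg. The sample labels name these groups only as low, middle and high, and the doses were assigned to them in rising order. The design set doses described as subtoxic beside doses described as toxic, at a single time, in a single strain and sex.

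Chaperones hold unfolded proteins in solution and help them fold. The HSP70 proteins bind exposed stretches of a client in a cycle driven by ATP, J-domain proteins such as Dnajb1 and Dnaja1 deliver clients and start ATP hydrolysis, and exchange factors such as Hsph1 release the spent nucleotide. HSP90 finishes the folding of kinases and hormone receptors, small heat shock proteins such as Hspb1 keep damaged proteins from clumping, and Hspd1 with its lid Hspe1 folds proteins inside mitochondria. Under stress the transcription factor HSF1 binds heat shock elements, inverted repeats of the letters GAA, in the promoters of many of these genes. Induction of HSP70 is a known response of the tubule to ischaemic and toxic injury.

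The promoters are shown because they hold the letters by which this gene group is usually recognised. RefSeq gave a promoter for 8 of the 10 genes (rat build GRCr8), and the 250 bases before the start used in that table were searched for GAANNTTC and TTCNNGAA. Each of these is its own reverse complement, so both strands read the same. At least 1 match was found in 7 of the 8 windows, against 13.5% of the 33469 promoters in the table. Longer runs of 3 units, GAANNTTCNNGAA or TTCNNGAANNTTC, which contain both shorter forms, were found in 4 of the 8 windows (Hspa8, Hsph1, Hspd1 and Hspe1), against 0.663% of all promoters. The windows of Hspd1 and Hspe1 hold the same run, so it enters both counts once for each gene. In the windows below, written 5′ to 3′ on the strand of the gene, capitals mark the matched letters. Hsph1 and Hspa8 carry the longer form, and Dnajb1 and Hspb1 only the shorter.
Hsph1: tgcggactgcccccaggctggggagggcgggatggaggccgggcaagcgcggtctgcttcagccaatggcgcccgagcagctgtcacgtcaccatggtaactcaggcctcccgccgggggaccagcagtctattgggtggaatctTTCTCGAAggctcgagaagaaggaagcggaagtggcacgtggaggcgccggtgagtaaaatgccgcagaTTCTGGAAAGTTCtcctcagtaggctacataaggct
Hspa8: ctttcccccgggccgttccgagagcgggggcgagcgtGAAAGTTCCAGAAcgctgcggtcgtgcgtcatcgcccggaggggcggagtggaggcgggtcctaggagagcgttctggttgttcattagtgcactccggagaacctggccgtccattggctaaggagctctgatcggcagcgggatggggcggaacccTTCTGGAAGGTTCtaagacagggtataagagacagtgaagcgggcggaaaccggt
Dnajb1: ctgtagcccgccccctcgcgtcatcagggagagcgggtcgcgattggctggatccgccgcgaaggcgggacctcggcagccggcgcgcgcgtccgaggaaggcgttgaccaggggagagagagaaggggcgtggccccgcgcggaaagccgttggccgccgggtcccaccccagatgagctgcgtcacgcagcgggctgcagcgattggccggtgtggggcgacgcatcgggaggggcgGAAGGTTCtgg
Hspb1: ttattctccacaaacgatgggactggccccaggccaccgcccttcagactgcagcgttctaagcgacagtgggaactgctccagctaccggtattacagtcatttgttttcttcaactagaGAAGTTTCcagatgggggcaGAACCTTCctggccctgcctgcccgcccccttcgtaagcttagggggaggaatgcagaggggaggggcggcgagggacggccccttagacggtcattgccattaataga
The Hsph1 window lies at chr12:10427118-10427367 on the plus strand, with matched letters from base -36 to -24 and from base -105 to -98 before the start. The Hspa8 window lies at chr8:50080264-50080513 on the plus strand, with a longer run at -213 to -201 and another at -55 to -43. The Dnajb1 window lies at chr19:41431142-41431391 on the minus strand, and its only match, at -11 to -4, is close to the start. The Hspb1 window lies at chr12:26432302-26432551 on the minus strand, with matches at -129 to -122 and -109 to -102. Hspd1 and Hspe1 lie head to head, and their windows share 211 bases on opposite strands. Both read the same element, printed here because the pair has it in common, at chr9:64084262-64084279 and in the direction of Hspe1.
Hspe1: TTCTAGAACCTTCCGGAA
This run of 18 bases spans -65 to -48 before the start of Hspe1 and -242 to -225 before the start used for Hspd1 in the promoter table. In the RefSeq gene table Hspd1 reaches from 64073610 to 64084332 on the same chromosome, so by that annotation the element lies within Hspd1, not before it. The Dnaja1 window held 1 match, at -181 to -174, and the Hspa1a window held none, which says only that these letters are not in that stretch. A match is a run of letters, and no binding was measured.

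Levels are given as relative signal, the background-subtracted intensity of a probe divided by the 75th percentile of its array, so that 1 is the brightness of a probe at that percentile. Levels are compared only within a probe. Changes are log2 differences with their limma standard errors (n = 3 animals per group), and a gene was called where the p-value adjusted over all 20760 tested genes was under 0.05. The arrays were alike, with 75th percentiles from 627 to 712 before scaling, 59.2% to 63.2% of probes well above background and 0 saturated spots. All 8 proximal tubule markers were well above background on all 12 arrays, as were all 4 of the loop and distal tubule and all 4 of the collecting duct, which fits the labelled tissue. The summed relative signal of the proximal tubule markers lay between 360.9 and 380.3 in the high animals and between 515.7 and 540.8 in the controls. That of 5 endothelial markers lay between 39.9 and 41.8 in the high animals and between 51.0 and 53.5 in the controls. That of 2 of 3 red blood cell markers lay between 1.66 and 2.74 in the high animals and between 3.37 and 3.67 in the controls, and both were called lower. The 4 loop and distal tubule markers summed to between 379.6 and 398.8 in the high animals and between 341.6 and 368.7 in the controls, and 2 of them were called higher. That of 5 of 6 macrophage markers lay between 6.05 and 6.24 in the high animals and between 4.27 and 4.53 in the controls. None of 4 B cell markers was tested, and of 4 neutrophil markers only S100a9 was. The part of these shifts in the results below was not tested, and in whole cortex fewer cells of a type and less RNA per cell cannot be told apart. All 3 controls shared a slide with low 1, and all 3 high animals shared another with middle 3. High and control animals therefore never met on a slide.

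At 600 mg/kg, 8 of the 10 chaperone genes rose against control and none fell, where 18% of all tested genes rose. Hspa1a rose by 5.72 and Hsph1 by 2.59 on the log2 scale and Hspa1b at least 24.4-fold in the standard setting. The changes of the other 5 lay between 0.23 and 0.68. In the same 8 genes all high animals stood above all controls, as they did in 28.5% of all tested genes. Hspa8 and Hspe1 were not called. Hspa1b passed the filter on dim probes only through the high group and so had to differ, and of the 9 genes measured in all groups 7 rose. With slide as a block Hspa1a, Hspa1b and Hsph1 were still called, and Hspb1, Hsp90aa1, Dnajb1, Dnaja1 and Hspd1 were not (adjusted p = 0.163 to 0.249). The median change over the 10 genes was 0.52, against -0.002 over all tested genes.

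**Figure D1:**
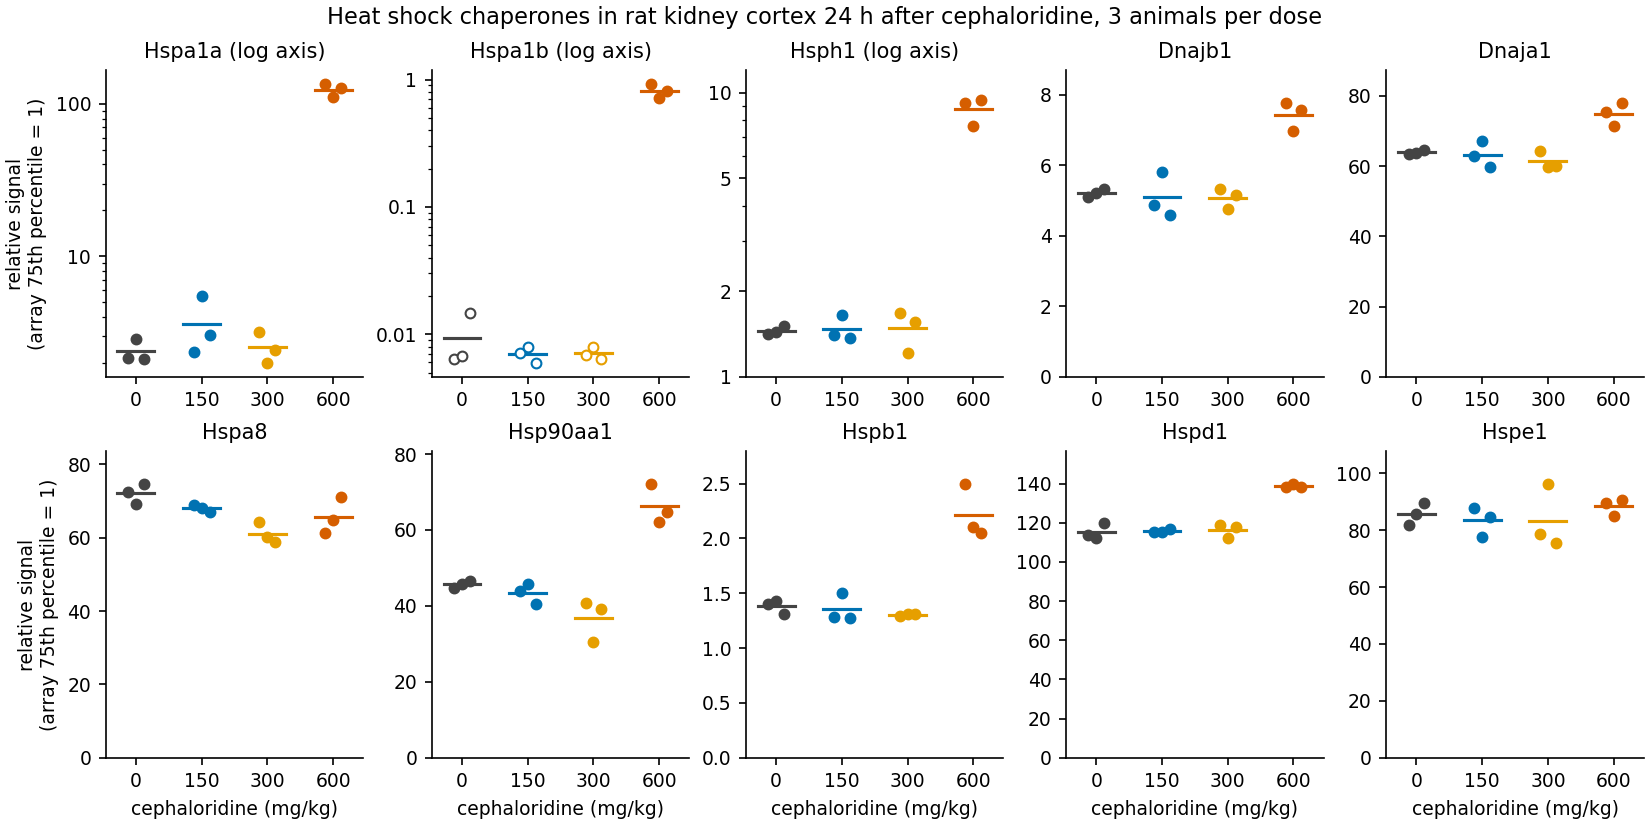
Relative signal (vertical axis, 1 is the 75th percentile of the array) of the 10 genes by cephaloridine dose (horizontal axis, mg/kg). Points are animals, bars are means of 3 animals, and open points mark groups in which the probe was not well above background on any array. The 3 panels with a log axis are labelled, and the other axes start at 0. In 8 panels all 3 animals at 600 mg/kg stand above all controls, and in the panels of Hspa8 and Hspe1 the groups overlap.

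Hspa1a and Hspa1b are neighbouring genes that encode nearly the same inducible HSP70 protein. The relative signals of Hspa1a were 2.14, 2.84 and 2.13 in the controls, 2.34, 5.44 and 3.05 at 150 mg/kg, 3.16, 1.997 and 2.43 at 300 mg/kg, and 134.6, 110.7 and 126.4 at 600 mg/kg. All high animals stood far above every other animal, and low 2 was the highest of the remaining 9. The change at 600 mg/kg was 5.72 ± 0.28 (95% interval 5.10 to 6.33, adjusted p = 1.56e-06). The 10 spots that carried this probe varied within an array by a standard deviation of 0.04 to 0.06 on the log2 scale. A second Hspa1a probe gave 1.39, 3.01 and 1.72 at 150 mg/kg and 81.0, 66.1 and 74.95 at 600 mg/kg, against 1.23, 1.58 and 1.20 in the controls. Its change of 5.80 at 600 mg/kg was close to that of the first probe, and low 2 was again the highest of its group. At 150 mg/kg the change of Hspa1a was 0.53 ± 0.28 (95% interval -0.09 to 1.14, adjusted p = 0.552), and 0.18 ± 0.21 without low 2 (adjusted p = 0.841). At 300 mg/kg it was 0.08 ± 0.28 (95% interval -0.53 to 0.70, adjusted p = 0.875).

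Hspa1b was the only member that was not well above background on any control, low or middle array. Its single probe gave relative signals of 0.919, 0.713 and 0.814 in the high animals and values from 0.0064 to 0.0148 in the controls. Against the lowest signal measured above background on the control arrays, the gene was at least 24.4-fold higher at 600 mg/kg (adjusted p = 7.03e-07 for the fitted change). Against the middle animals it was at least 26.1-fold higher (adjusted p = 1.24e-06). The fitted change itself carries no size here. Against control it was 6.56 in the standard setting and 3.16 with a background correction that adds an offset of 50. The second value lies below the bound against control, 4.61 on the log2 scale, so the bounds hold for the standard setting only. The gene passed the filter on dim probes only through the high group, so neither p-value counts as support for a rise. Since the 2 genes are nearly identical, each probe may have bound RNA of both.

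Hsph1 encodes an HSP110 protein that serves HSP70 as exchange factor. Its relative signals were 1.41, 1.43 and 1.51 in the controls, 1.41, 1.65 and 1.37 at 150 mg/kg, 1.67, 1.21 and 1.56 at 300 mg/kg, and 9.20, 7.64 and 9.44 at 600 mg/kg. The 9 animals below 600 mg/kg formed a single narrow range, and the high animals did not overlap it. The change at 600 mg/kg was 2.59 ± 0.13 (95% interval 2.31 to 2.87, adjusted p = 1.56e-06). At 300 mg/kg it was 0.01 ± 0.13 (95% interval -0.26 to 0.29), and at 150 mg/kg 0.02 ± 0.13 (95% interval -0.26 to 0.30).

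Both J-domain genes rose at 600 mg/kg, and neither was called with slide as a block (adjusted p = 0.163 for Dnajb1 and 0.21 for Dnaja1). Dnajb1 works with inducible HSP70 in dissolving aggregates. Its relative signals were 5.09, 5.20 and 5.34 in the controls and 4.86, 5.81 and 4.60 at 150 mg/kg. They were 5.32, 4.76 and 5.16 at 300 mg/kg, and 7.76, 6.96 and 7.56 at 600 mg/kg. Every high animal stood above every other animal. The change was 0.51 ± 0.08 (adjusted p = 0.0014), and its second probe gave 0.49 and was also called. Dnaja1, a farnesylated J-domain protein of the cytosol, gave 75.5, 71.4 and 78.0 in the high animals and 63.6, 63.8 and 64.5 in the controls. The groups did not overlap, and the change of 0.23 ± 0.05 was the smallest among the called members (adjusted p = 0.00876).

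Hspa8 encodes the constitutive HSP70 of the cytosol, and it was not called at 600 mg/kg. Its relative signals were 72.5, 69.2 and 74.6 in the controls, 68.9, 68.1 and 67.0 at 150 mg/kg, 64.3, 60.3 and 58.7 at 300 mg/kg, and 61.2, 64.9 and 71.04 at 600 mg/kg. High 1 and high 2 lay within the range of the low and middle animals, and high 3 lay above it, within the range of the controls. The change at 600 mg/kg was -0.14 ± 0.06 (95% interval -0.27 to -0.002, adjusted p = 0.106), so this probe gives no rise within its interval. The other 3 Hspa8 probes gave changes between -0.04 and 0.03 at this dose, and none of the 4 probes was called. At 300 mg/kg Hspa8 fell by 0.24 ± 0.06 (adjusted p = 0.0295) and was the only called member at that dose. That call rested on 1 of 4 probes and was lost in 10 of 19 other settings, 5 of them with a single array left out (adjusted p = 0.0274 to 0.0959 over the arrays left out in turn). With the mean of the 4 probes the change was -0.14 (adjusted p = 0.203). Fitting the slide as well gave -0.18 (adjusted p = 0.448).

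Hsp90aa1, the inducible cytosolic HSP90, was read by 4 probes. The probe that stands for the gene gave 44.7, 45.8 and 46.6 in the controls, 43.8, 45.9 and 40.4 at 150 mg/kg, 40.7, 30.5 and 39.2 at 300 mg/kg, and 72.1, 62.1 and 64.7 at 600 mg/kg. The high animals stood above all others. The middle animals lay below the controls and overlapped the low animals. The change was 0.53 ± 0.10 at 600 mg/kg (adjusted p = 0.00319) and -0.32 ± 0.10 at 300 mg/kg, which missed the threshold (adjusted p = 0.064). The probes disagreed at 300 mg/kg, where their changes lay between -0.32 and 0.01 and none was called. All 3 measurable probes were called at 600 mg/kg, with changes between 0.53 and 0.89. The scanner software had marked the spot of the fourth probe as an outlier on all 3 high arrays, on control 2 and on low 3, so it has no tested value. As deposited, that spot gave relative signals of 105.8, 96.3 and 99.0 in the high animals and 62.6 to 64.1 in the controls.

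Hspb1, the small heat shock protein that also binds actin filaments, was spotted 10 times. It gave 2.49, 2.10 and 2.05 in the high animals and 1.40, 1.43 and 1.31 in the controls. Every high animal stood above every control, and the change was 0.68 ± 0.08 (adjusted p = 0.000347). Over the probes that stand for the genes, that change was the largest outside the inducible HSP70 genes and Hsph1. Another probe of Hsp90aa1 gave 0.89. The spots of an array differed by a standard deviation of 0.03 to 0.06 on the log2 scale. At 150 and 300 mg/kg the changes were -0.03 and -0.08, and neither was called.

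Of the mitochondrial pair, which shares the element printed above, Hspd1 was called and Hspe1 was not. Hspd1 gave 138.0, 139.7 and 138.3 in the high animals and 113.7, 112.0 and 119.9 in the controls. The high animals lay within a very narrow band above all controls, and the change was 0.27 ± 0.04 (adjusted p = 0.00092). That is the largest change among its 4 probes, of which the others gave 0.17, 0.15 and 0.14 and 2 in all were called. Hspe1 gave 89.6, 85.0 and 90.6 in the high animals and 81.8, 85.7 and 89.6 in the controls. Those groups overlapped, the change was 0.04 ± 0.09 (adjusted p = 0.726), and its 95% interval was -0.15 to 0.24, which holds the changes of 3 of the 4 Hspd1 probes. With slide as a block the change was 0.23 for Hspd1 and 0.36 for Hspe1, and neither was called. Against middle 3 on the same slide both gave 0.23. These are not separate readings, since the block change also rests on middle 3, whose Hspe1 signal was the lowest of all animals. The difference between the changes of the pair was not tested. Middle 2 stood highest of all animals for Hspe1 at 96.1, while the other middle animals gave 78.6 and 75.4.

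**Figure D2:**
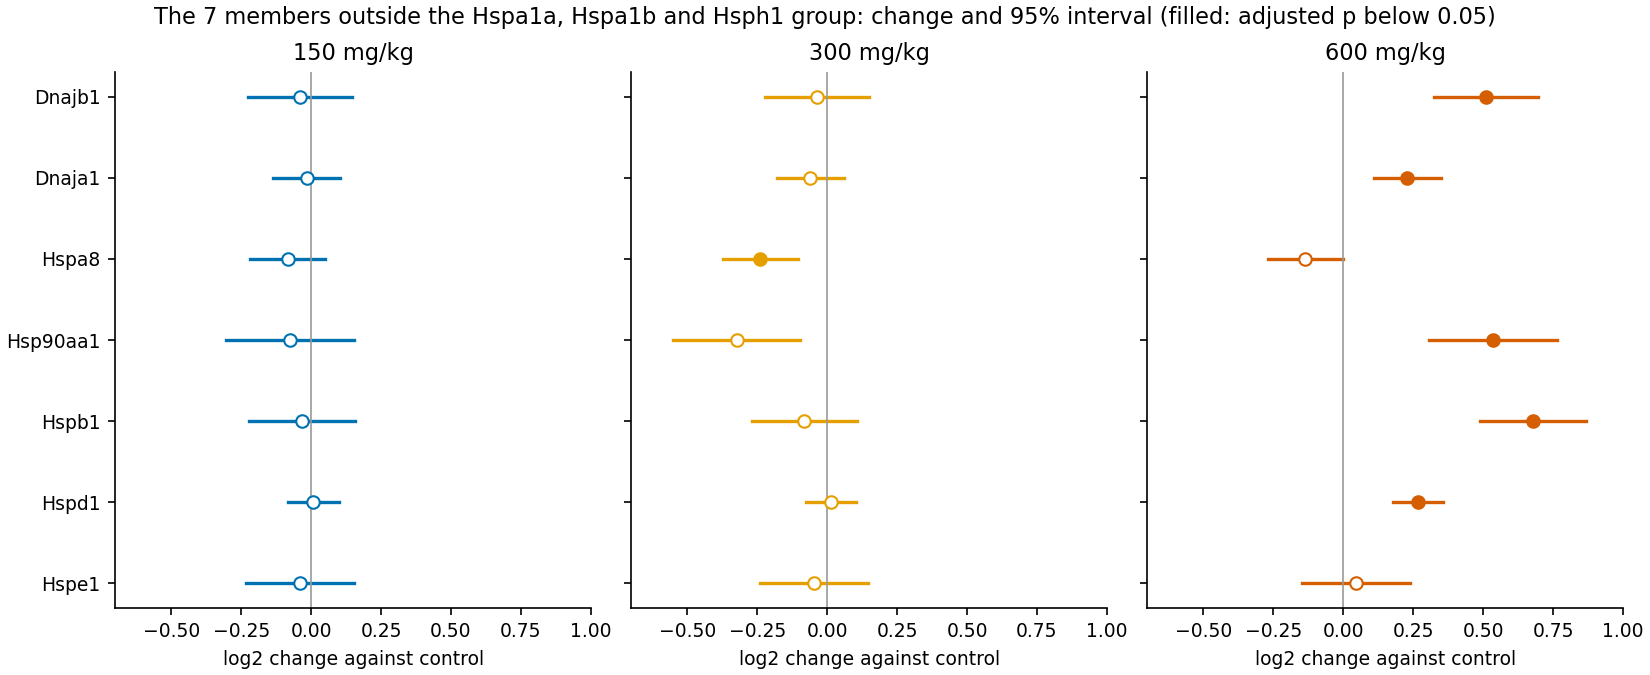
Log2 change against control (horizontal axis) at 150, 300 and 600 mg/kg for the 7 genes other than Hspa1a, Hspa1b and Hsph1. Points are limma estimates from 3 animals per group, lines are 95% intervals, and filled points were called. At 600 mg/kg 5 points are filled on the higher side, at 300 mg/kg only Hspa8 is filled, on the lower side, and at 150 mg/kg none is.

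Several members have close relatives that a probe may also read. The RefSeq gene table lists 33 pseudogenes of Hspa8, 20 of Hspd1, 16 of Hsp90aa1, 4 of Dnaja1 and 1 of Hspe1. A further 25 probes are described in the array files as the Hspa8, Hsp90aa1 or Hspd1 protein, or as similar to it, without mapping to a member, and 20 of them were measured. They were picked by those descriptions after the members' values were known. Of 10 such probes for Hspa8, none was called at 600 mg/kg, and their changes lay between -0.22 and 0.14. Of 3 for Hsp90aa1, 2 rose by 0.85 each, and the third gave 0.49 and was not called. Of 7 for Hspd1, 3 rose, with changes between -0.08 and 0.28. Over the members' own probes, 13 of 20 rose at 600 mg/kg and none fell, with p-values adjusted over 24728 probes, of which 17.3% rose. Whether these probes read the gene or a relative was not tested.

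**Figure D3:**
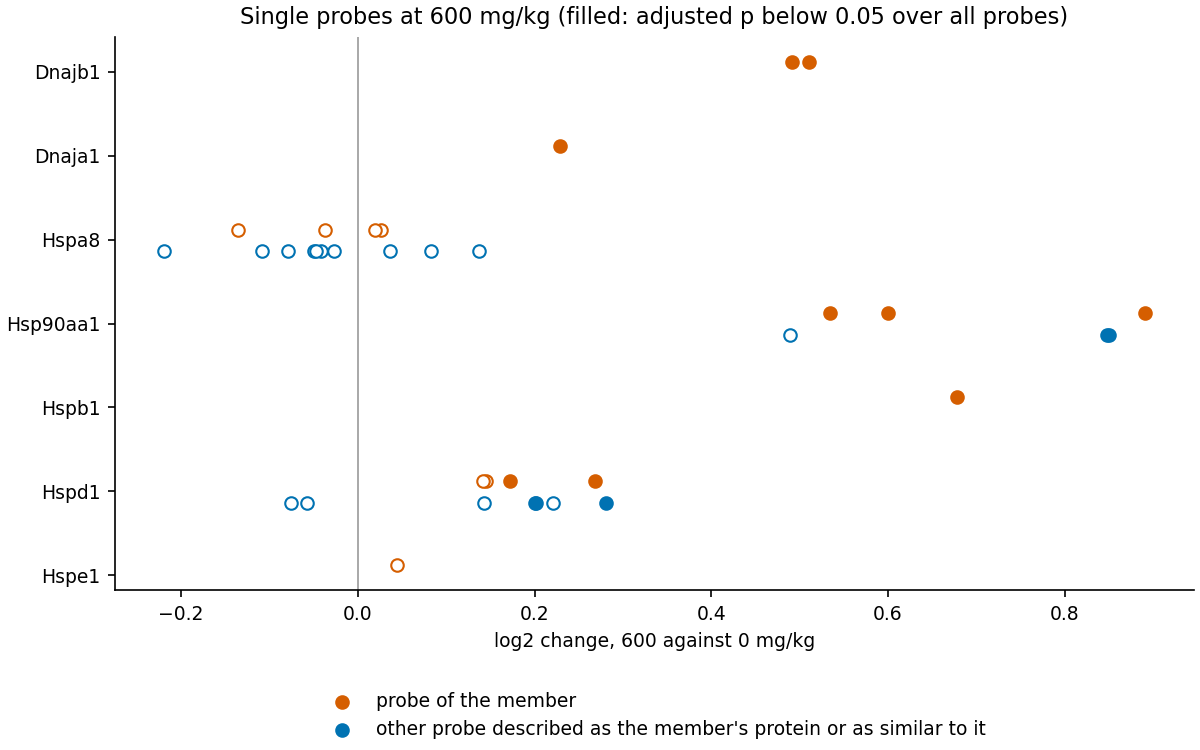
Log2 change at 600 mg/kg against control (horizontal axis) for single probes of the 7 genes other than Hspa1a, Hspa1b and Hsph1. Orange points are probes of the gene, blue points are other probes described as its protein or as similar to it, and filled points were called over all probes. All Hspa8 points are open, and the points of Hsp90aa1 lie between 0.49 and 0.89.

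Below 600 mg/kg a single member was called in the comparisons with control. At 150 mg/kg 0 of 10 were called (limma, also 0 at an unadjusted p under 0.05), where 0.101% of all tested genes were. At 300 mg/kg 0 of 10 rose, where 8.21% of all tested genes did, and only Hspa8 fell, where 4.81% did. Between 300 and 150 mg/kg 0 of 10 were called, with 2 at an unadjusted p under 0.05 (Hspa8 and Hsp90aa1, both lower at 300 mg/kg), where 0.231% of all tested genes were called. At 600 against 300 mg/kg 8 of 10 rose, where 9.61% of all tested genes did. They were the same 8 genes that rose against control, Hspa1b again with its lower group not well above background. That gene passed the filter on dim probes only through the high group and so had to differ. Of the 9 genes measured in all groups 7 rose. The comparisons of the high group with control and with the middle group share the high animals. The changes at 600 against 300 mg/kg were 5.64 ± 0.28 for Hspa1a, 2.57 ± 0.13 for Hsph1, 0.86 ± 0.10 for Hsp90aa1 and 0.76 ± 0.08 for Hspb1. Those of Dnajb1, Dnaja1 and Hspd1 were 0.55, 0.29 and 0.25. Hspa8 and Hspe1 gave 0.10 and 0.09 and were not called (adjusted p = 0.249 and 0.491).

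Because high and control animals lay on different slides, the changes were also set out within slides. On the slide that carried middle 3 and the 3 high animals, the mean of the high animals exceeded middle 3 by 5.67 for Hspa1a, 2.48 for Hsph1, 0.76 for Hsp90aa1, 0.75 for Hspb1, 0.52 for Dnajb1, 0.32 for Dnaja1 and 0.23 for Hspd1. These values were close to those over all animals, though each rests on a single middle animal. Hspe1 gave 0.23 and Hspa8 0.16 on that slide. With slide as a block the change at 600 against 300 mg/kg is this same difference from middle 3, so it is no separate check. In that fit 7 genes were called higher, where 4.96% of all tested genes were. Of the 9 genes measured in all groups 6 were called. Hspd1 missed the threshold (adjusted p = 0.0583). At 600 mg/kg against control the block fit rests on middle 3 and low 1, the only animals of other groups on the high and control slides. It also rests on the low and middle animals of the other 2 slides, which tie middle to low. Hspa1b passed the filter on dim probes only through the high group. The block left Hspa1a, Hspa1b and Hsph1 called, 2 of them among the 9 genes measured in all groups, where 1.83% of all tested genes rose. The other 5 lost their calls with changes of 0.56 for Hspb1 (adjusted p = 0.182), 0.41 for Hsp90aa1 (0.207), 0.39 for Dnajb1 (0.163), 0.26 for Dnaja1 (0.21) and 0.23 for Hspd1 (0.249). The median standard error over all tested genes was 0.154 with the block and 0.076 without it. For Hspe1 the change moved to 0.36 with the block and was not called (adjusted p = 0.168). On the slide of the controls, low 1 differed from their mean by -0.11 to 0.03 on the log2 scale for the 9 genes other than Hspa1b. On the other 2 slides Hspa1a was lower in the middle than in the low animal, by -0.78 and -0.61.

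**Figure D4:**
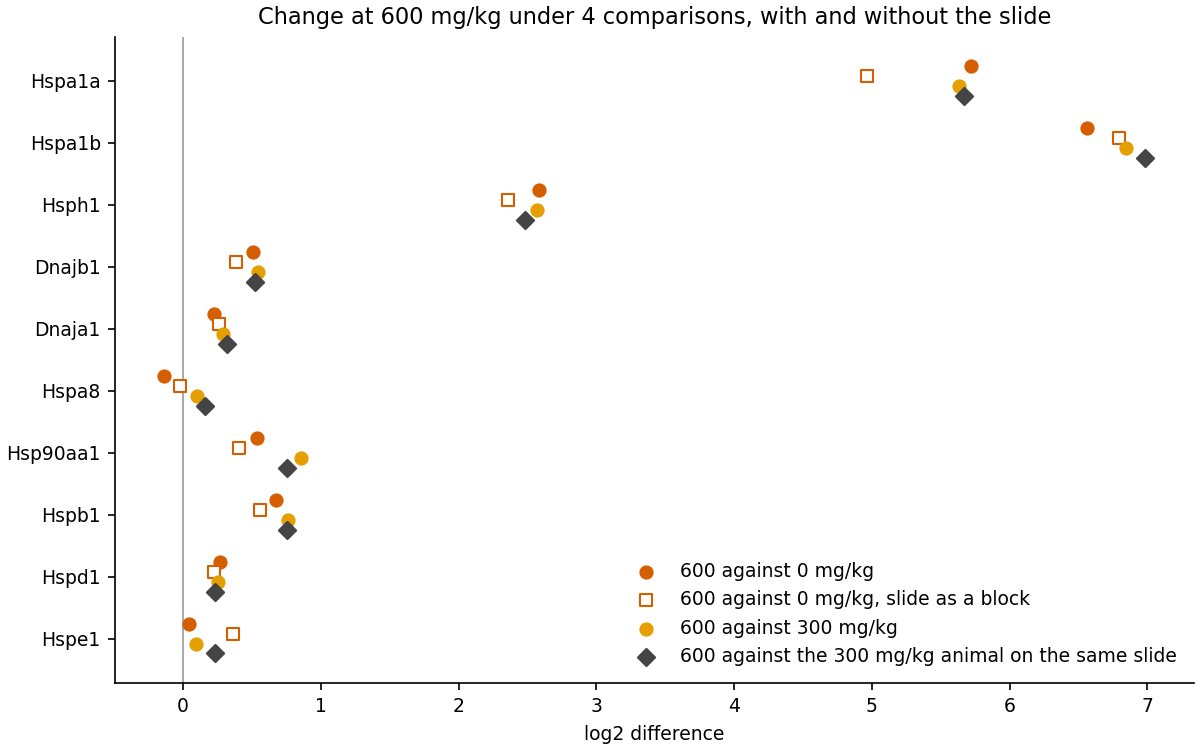
Log2 difference (horizontal axis) of each gene at 600 mg/kg, against control without and with slide as a block, against all middle animals, and against the single middle animal on the same slide. Those of Hspa1a lie between 4.97 and 5.72 and those of Hsph1 between 2.36 and 2.59, to the right of all values of the 7 genes below them. Those of Hspa1b are fitted values whose lower group was not well above background.

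Within a dose the same animal was often the highest or the lowest. How often each animal was so over all tested genes was not counted, so this is not shown to be particular to the members. Over the 9 genes other than Hspa1b, high 2 was the lowest of the high animals for 6, including Hspa1a, Hsph1, Dnajb1, Dnaja1 and Hsp90aa1. Low 2 was the highest of its group for 6 genes and low 3 the lowest for 6. Middle 1 was the highest of its group for 7 genes and middle 2 the lowest for 6. Among the controls, which shared 1 slide, control 3 was the highest for 7 genes and control 1 the lowest for 5. Low 2 and middle 1 shared a slide, as did low 3 and middle 2. Low 2 exceeded low 3 for 7 of the 9 genes, where 50.0% of all tested genes did, and middle 1 exceeded middle 2 for 7 of the 9, where 42.5% did. The slide of low 2 and middle 1 was scanned on another day than all other arrays. Slide, scan day and animal cannot be told apart in these pairs.

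Beyond the members, 78 related genes in 7 lists were examined, of which 67 were tested. Of the 67, 19 rose and 8 fell at 600 mg/kg, where 18% of all tested genes rose and 16.8% fell. With slide as a block only Bag3 was called, and at 150 mg/kg none of the 67 was (limma, 6 at an unadjusted p under 0.05). Of the 67, 4 rose and 5 fell at 300 mg/kg, where 8.21% and 4.81% of all tested genes did. Among 22 partners and relatives of HSP70, 10 rose and 3 fell, with a median of 0.06. Bag3, a cochaperone that links HSP70 to small heat shock proteins, rose by 0.88 ± 0.07 (adjusted p = 1.94e-05), and by 0.87 with slide as a block (adjusted p = 0.0454). Its relative signals were 40.8, 34.4 and 37.6 in the high animals and 19.5, 20.2 and 21.3 in the controls, without overlap. Dnajb4, another J-domain protein, rose by 0.36. Hspa4, an HSP110 relative of Hsph1, gave -0.66 (adjusted p = 0.00076) on its brightest probe and 0.14 (adjusted p = 0.142) on its other probe, so its direction is uncertain. Dnajb5 fell by 0.39, and its other probe gave -0.16 and was not called.

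Of 9 HSP90 partners 3 rose and none fell, with a median of 0.12. The constitutive HSP90 gene Hsp90ab1 rose by 0.39 on 1 of its 2 probes (0.05 on the other), and Stip1, which holds HSP70 and HSP90 together, rose by 0.32. Of 6 small heat shock proteins other than Hspb1, 3 rose and none fell, with a median of 0.30. Hspb8, a partner of Bag3, rose by 0.69. Its relative signals were 0.115, 0.125 and 0.175 in the high animals and 0.082, 0.077 and 0.096 in the controls. Those of the middle animals, 0.123, 0.115 and 0.104, overlapped the high animals. Cryaa, an alpha-crystallin, was not well above background in the controls and was at least 1.91-fold higher in the high animals (adjusted p = 0.00055). Like Hspa1b it passed the filter only through the high group, so its call, counted among the 3 that rose, is no support for a rise. Of 10 genes of the cytosolic chaperonin and prefoldin, which fold actin and tubulin, 3 rose and none fell, with a median of 0.12. They included the chaperonin subunits Tcp1 (0.31) and Cct7 (0.17).

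Of 6 other mitochondrial chaperones and proteases none was called at 600 mg/kg in limma (1 at an unadjusted p under 0.05), and the largest changes were -0.12 for the protease Lonp1 and -0.11 for the protease subunit Clpx. Of 3 heat shock factors and regulators none was called (1 at an unadjusted p under 0.05), and the largest changes were 0.19 for Hsf2 (adjusted p = 0.057; -0.02 on its other probe and -0.10 with slide as a block) and -0.08 for Hsbp1, an HSF1 inhibitor. Of 11 chaperones of the endoplasmic reticulum none rose and 5 fell, with a median of -0.14. They included the lectin chaperone Calr (-0.49 ± 0.08, adjusted p = 0.00126) and the HSP70 of that compartment, Hspa5 (-0.47 ± 0.07, adjusted p = 0.000898).

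**Figure D5:**
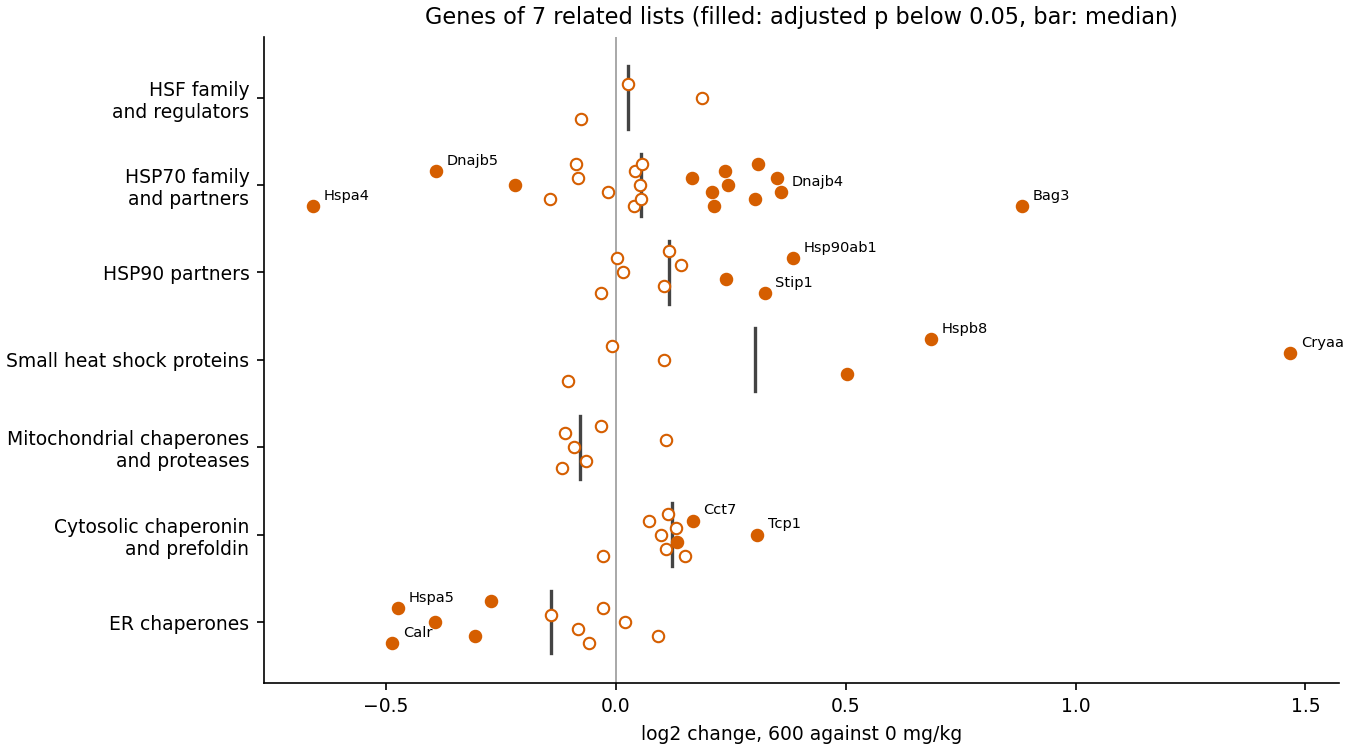
Log2 change at 600 mg/kg against control (horizontal axis) for the tested genes of 7 lists of related chaperones and regulators. Filled points were called, bars are list medians, and names are those of the called genes given in the text. Filled points lie on the higher side for HSP90 partners, small heat shock proteins and the chaperonin, on the lower side for ER chaperones, and on both sides for HSP70 partners. The Cryaa point is a fitted value whose controls were not well above background.

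As a description over the 12 arrays, the named genes whose log2 levels ran most like those of Hspa1a were Hmox1, the haem-degrading enzyme (Pearson r = 0.992), Timp1, a metalloproteinase inhibitor (0.989), Angptl4, a lipase inhibitor (0.986), Bag3 (0.986) and Nop56, a nucleolar protein (0.984). For Hsph1 they were Hmox1 (0.997), Bag3 (0.992), the AMP deaminase Ampd1 (0.991), the metalloproteinase Mmp3 (0.989, not well above background in any group but high) and Angptl4 (0.989). The search ran over 11018 genes, and every such value rests mainly on the gap between the high animals and the other 9. Bag3 was the only gene in both sets that also stood in a list of related chaperones.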

How the data were processed

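Total RNA of 12 kidney cortices was labelled with cyanine 3 and read on 1 array per animal. Per the file headers, the deposited intensity values were made with Agilent Feature Extraction 9.1.3.1, with local background subtraction and detrending and no scaling between arrays, and the deposited flags of 0 or 1 mark spots that are well above background, saturated or outliers. The authors' deposited value table is a linear ratio, the processed signal over a constant per array, and served as an alternative only. No genome build is given for the array in the sources used here; gene positions and promoters are those of RefSeq, build GRCr8.

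Processed signals were converted to log2, averaged over the unmarked spots of a probe, and set against the 75th percentile of the array. The brightest probe with unmarked spots on at least 2 arrays per group stood for a gene. Differences between groups were fitted over all 12 arrays with limma 3.58.1 (R 4.3.3), with 8 residual degrees of freedom. Tests were two-sided, with Benjamini-Hochberg adjustment over 20760 genes. The fit was also run on simulated arrays with independent noise and no slide effect, so that run cannot check differences between slides. The labels number the animals but do not tie them across doses. The p-values rest on the spread between animals within a group, pooled over the 4 groups of 3 and drawn by limma toward that of all genes. A fold is given as a lower bound, for the standard setting, where a group was not well above background on any array. Slides and scan days come from the file headers. All 10 members and every probe were reported; from each related list the 2 called genes with the largest rise and the 2 with the largest fall were named, or the 2 largest changes where none was called, and for Hspa1a and Hsph1 the 5 genes most like them. The members, the lists and the tests were chosen with earlier results of these data known. The number of arrays limits the precision.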

Additional observations from a re-analysis of the deposited data

How the results depend on the processing

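At 600 mg/kg against control 8 members were called. The count was 3 with slide as a block, and 8 to 9 with each array left out in turn; the ninth was Hspa8, lower without high 3 (-0.19, adjusted p = 0.0355). At 600 against 300 mg/kg the count stayed between 7 and 8 over all alternatives. At 300 mg/kg against control 1 member was called. That count was 2 with normexp background correction, with scan day as a block and with trended and robust moderation, which added Hsp90aa1. It was 0 without a filter on dim probes, with the mean of a gene's probes, with only the compared groups and with slide as a block, and 0 to 2 with each array left out. At 150 mg/kg against control and at 300 against 150 mg/kg it was 0 under every alternative run. The replicate number as a block left 0 calls at 300 mg/kg (Hspa8 adjusted p = 0.0531); equal numbers did not pair the animals, whose deviations from their group means correlated between -0.23 and 0.12 for equal numbers and between -0.24 and 0.28 for others. Quantile normalization, a median shift, the authors' value table and the probes well above background on all 12 arrays changed no member's call, except that the last left Hspa1b untested. Of 189 single values at 600 mg/kg against control, 183 kept their side of the threshold, 5 lost it with slide as a block and 1 gained it. The causes were not tested. Dim probes limit Hspa1b and Cryaa to bounds, and high and control animals shared no slide.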
